A study of Mus musculus with 60 samples.

Results

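The comparison set 5 calf muscles of mice that carry both Dmdmdx and Largemyd (the double mutant) against 5 calf muscles of mice that carry Largemyd alone, all male and 3 months old. These 10 arrays were taken by their titles from the 60 of the series. The other arrays are C57Bl/6 normal controls and Dmdmdx at 3 months, and the same 4 lineages at 21 days and 6 months, with 5 animals in each group and 1 array per animal. Total RNA of whole calf muscle was hybridised to Affymetrix Mouse Gene 1.0 ST arrays, and the values below are log2 RMA expression (RMA is a summary of the probes of a gene after background correction and normalisation). Both groups compared are Largemyd mutants, so what separates them by label is the Dmdmdx mutation. Per the labels the mice had no treatment. The labels do not say how the lines were bred or whether littermates were used. Whole muscle holds fibres, immune cells, fibroblasts, vessels and nerve together, and fewer cells of a type and less RNA per cell cannot be told apart in it.

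Dystrophin, the product of Dmd, joins the actin cytoskeleton of the muscle fibre to the dystroglycan complex in its membrane. Alpha-dystroglycan in turn holds laminin outside the fibre through a sugar chain, and Largemyd is a deletion in the glycosyltransferase gene that builds this chain. The 2 mutations therefore hit the same axis from the inside and from the outside, and the comparison asks what the loss of dystrophin adds in muscle whose dystroglycan is already underglycosylated. In Dmdmdx mice fibres go through rounds of necrosis and regeneration, with macrophage infiltration and fibrosis, and Largemyd mice have a severe congenital form of dystrophy.

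The 10 arrays were uniform in most checks. Xist, which silences an X chromosome in females, ranged from 4.86 to 5.41 in them, and no mean of marrow, lymph node or skin markers exceeded the median for 3 months by 2 log2 units. Elsewhere in the series 21 arrays had an Xist level above 8 or such a marker excess over the median of their age. Among them were 2 C57Bl/6 and 3 Dmdmdx arrays of 3 months. Counts of genes shared with Dmdmdx against C57Bl/6 or with the other ages are given with and without them. So are the counts of the tests by background and by age. Most other values that use them, such as counts against C57Bl/6 and list medians, are given with all arrays only. Genes of fast fibres averaged 12.54 to 12.69 in the double mutants and 12.61 to 12.74 in Largemyd, which are levels of abundant transcripts. One array, Largemyd replicate 5, stood apart in several lists. Its adipocyte markers averaged 10.43 against 8.90 to 9.74 in the other Largemyd arrays, its neutrophil markers 7.30 against 6.41 to 6.65, its slow fibre genes 9.13 against 9.83 to 10.98 and its heat shock genes 10.71 against 10.29 to 10.49.

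Dmd read 8.76, 8.87, 8.33, 8.48 and 8.74 in the double mutants and 9.29, 9.59, 9.56, 9.47 and 9.43 in Largemyd. The lowest Largemyd array lay above the highest double mutant array, and the level fell by 1.78-fold, a log2 difference of -0.83±0.18 (adjusted p = 0.0056), where ± gives the standard error of the limma fit here and below. The Dmdmdx arrays ranged from 7.41 to 8.70, with 3 of the 5 double mutants above the highest of them, and C57Bl/6 ranged from 9.41 to 10.03. Dmd was also lower in the double mutant than in Largemyd at 21 days (-0.57±0.18, adjusted p = 0.044) and at 6 months (-0.70±0.18, adjusted p = 0.029). No array left out in turn ended the 3-month call.

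Of the 17 genes of the dystrophin complex measured, 1 rose and 1 fell, where 0.366% of all 19938 genes tested rose and 0.772% fell (1.14% passed in either direction, at a limma adjusted p under 0.05). The 1 that rose was Sntb2, which encodes beta-2-syntrophin, an adaptor that binds dystrophin and utrophin. It read 9.27, 9.28, 9.25, 9.25 and 9.06 in the double mutants and 8.78, 8.86, 8.88, 8.88 and 8.80 in Largemyd, with no overlap, and differed by 0.38±0.07 (adjusted p = 2.7e-04). Other partners of dystrophin did not pass. Utrn, whose product utrophin can stand in for dystrophin, read 9.55, 9.57, 9.43, 9.43 and 9.42 in the double mutants and 9.24, 9.38, 9.34, 9.32 and 9.55 in Largemyd. The groups overlapped, since Largemyd replicate 5 reached the level of the double mutants, and the difference of 0.11±0.07 (adjusted p = 0.61) did not pass. Dag1, encoding dystroglycan itself, read 11.33, 11.23, 11.23, 11.03 and 11.23 in the double mutants and 11.32, 11.27, 11.34, 11.34 and 11.17 in Largemyd, a difference of -0.07±0.10 (adjusted p = 0.86). The sarcoglycan genes Sgca (-0.30±0.17) and Sgcb (-0.22±0.15) had lower values in every double mutant array than in any Largemyd array but did not pass (adjusted p = 0.56 and 0.66). Neuronal nitric oxide synthase, Nos1, which is anchored by the complex, differed by -0.68±0.21 (adjusted p = 0.11).

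Of 13 genes that glycosylate dystroglycan, 11 had lower values in the double mutant, as did 12021 of all 19938 genes. The median difference of the 13 was -0.09 against -0.03 over all genes. Pomgnt2, which adds the GlcNAc of the core sugar, was the 1 that fell, by -0.35±0.09 (adjusted p = 0.0499). It read 8.04, 8.11, 8.12, 8.11 and 8.22 in the double mutants and 8.69, 8.38, 8.47, 8.46 and 8.32 in Largemyd. The groups did not overlap, but this call was lost whichever 1 of the 10 arrays was left out.

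Across the 19938 genes, 73 rose and 154 fell in the double mutant. Of these 227 genes, 202 had no overlap between the 5 and 5 arrays, which held for 8.25% of all genes, and 97 differed by at least 0.5 on the log2 scale. At least 2-fold differences were found in 18. The spread in this test came from all 12 groups of the series. With the spread of these 10 arrays alone 1327 genes passed (634 higher and 693 lower, 6.66% of genes), 212 of the 227 among them. With the 20 arrays of 3 months 179 passed (131 of the 227 among them), and without the 21 arrays of other groups with high Xist or other tissue 515 passed (221 of the 227). Leaving out 1 array gave 103 to 176 genes, and the count changed by more than 1.5 times without double mutant replicate 4 (103), double mutant replicate 3 (119), Largemyd replicate 5 (136) or Largemyd replicate 2 (151).

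The gene with the smallest p-value was Pttg1, which encodes securin, the inhibitor of the separase that splits sister chromatids. It read 7.38, 7.53, 7.76, 7.82 and 7.32 in the double mutants and 9.21, 9.25, 9.09, 9.33 and 9.24 in Largemyd. Every double mutant array was more than 1 log2 unit below every Largemyd array, and the difference was -1.66±0.13 (adjusted p = 8.0e-13). The difference was of similar size in arrays that share no sample with this comparison. Dmdmdx differed from C57Bl/6 by -1.70±0.13 (adjusted p = 1.5e-13), and the double mutant differed from Largemyd by -1.57±0.13 (adjusted p = 7.4e-12) at 21 days and -1.51±0.13 (adjusted p = 3.1e-11) at 6 months.

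Arl14ep, which encodes an effector protein of the small GTPase ARL14, moved the other way. It read 8.99, 8.93, 8.95, 8.59 and 8.68 in the double mutants and 7.74, 7.80, 7.80, 7.78 and 7.67 in Largemyd, 2 narrow groups without overlap, with a difference of 1.07±0.10 (adjusted p = 1.9e-10). Largemyd lay within or near the range of C57Bl/6 (7.65 to 7.84), and the double mutant within that of Dmdmdx (8.43 to 9.03). The difference was 0.75±0.10 (adjusted p = 1.9e-06) at 21 days and 0.94±0.10 (adjusted p = 9.7e-09) at 6 months.

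Ublcp1, a phosphatase that acts on the nuclear proteasome, fell by 1.28±0.19 (adjusted p = 1.5e-05) and read 6.08, 7.18, 6.71, 7.18 and 6.29 in the double mutants and 7.90, 8.13, 7.87, 7.73 and 8.21 in Largemyd. The 5 double mutants spread over more than 1 log2 unit but stayed under the lowest Largemyd array. Parm1, a mucin-like membrane protein, fell by 1.05±0.15 (adjusted p = 9.0e-06), with 8.10 to 8.54 in the double mutants against 9.26 to 9.62 in Largemyd. Tcea3, a transcription elongation factor, fell by 0.92±0.16 (adjusted p = 4.0e-04), with 9.65 to 10.18 against 10.59 to 10.88. Glo1, the glyoxalase that clears methylglyoxal, fell by 0.94±0.11 (adjusted p = 1.0e-07) and read 9.99, 10.08, 9.85, 9.79 and 9.90 in the double mutants and 10.90, 10.94, 10.99, 10.90 and 10.58 in Largemyd. Its groups did not overlap, and the Largemyd values lay above those of C57Bl/6 (10.36 to 10.56) as well. Tmem267, a membrane protein, fell by 1.08±0.24 (adjusted p = 0.011), and its call was lost without Largemyd replicate 3 (adjusted p = 0.056).

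**Figure D1:**
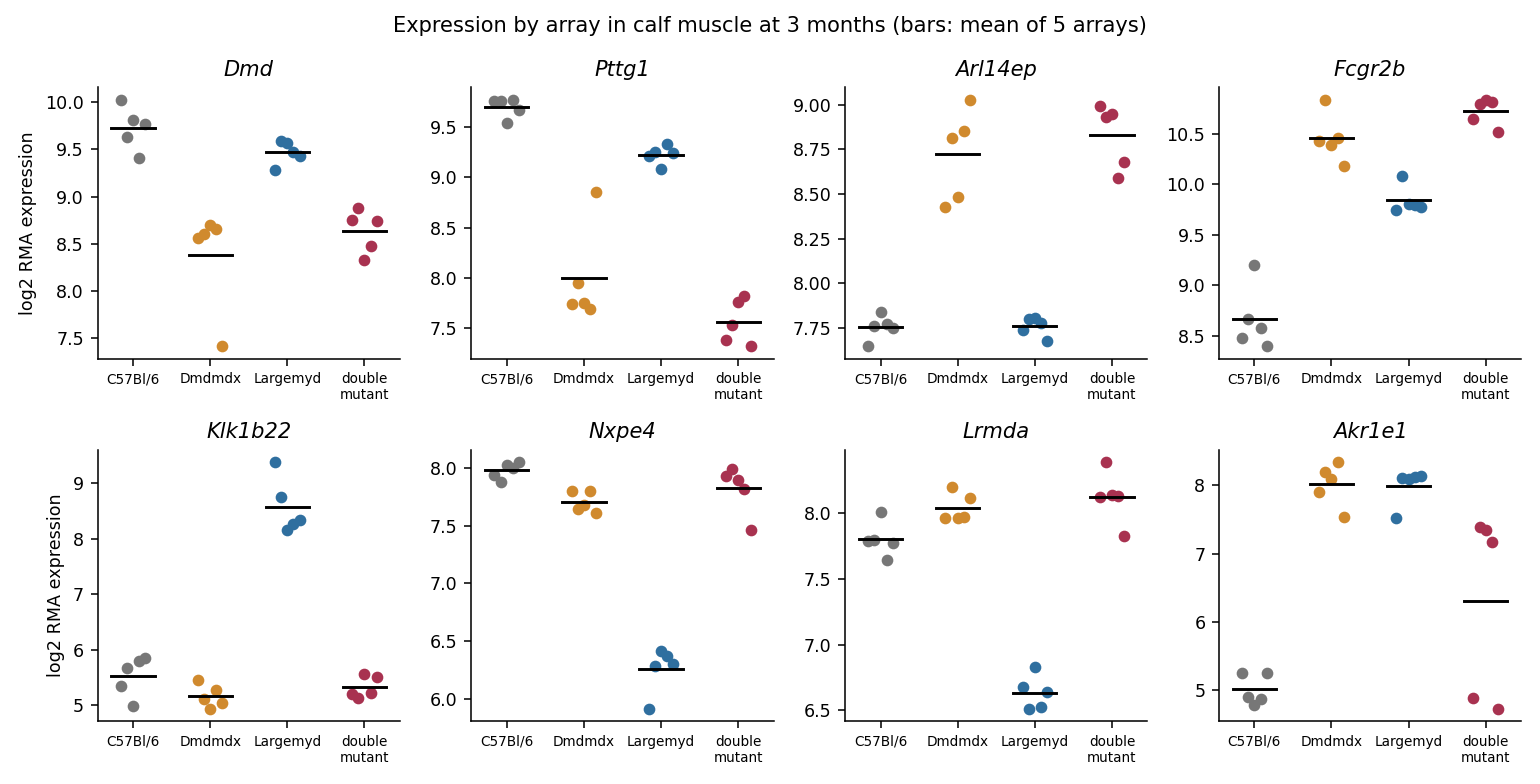
Log2 RMA expression of 8 genes in the 20 arrays of 3 months, 1 point per array, with the mean of each group of 5 as a bar and a separate vertical scale for each gene. Dmd and Pttg1 are low and Arl14ep is high wherever Dmdmdx is present, Fcgr2b is higher in the double mutant than in Largemyd, Klk1b22, Nxpe4 and Lrmda stand apart in Largemyd alone, and Akr1e1 is split within the double mutant.

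Of the 227 genes, 159 also passed, in the same direction, in Dmdmdx against C57Bl/6 at 3 months, and 4 passed in the opposite one. That is 70.0% of the 227 and 2.84% of the 5606 genes that passed there, and 28.1% of all genes passed in that comparison. Without the 5 arrays of 3 months with high Xist or other tissue, and the 16 of other ages, the figure was 112 of 227 where 15.0% of all genes passed. Of the arrays behind the other ages, 2 of the 10 at 21 days and 4 of the 10 at 6 months were among those with high Xist or other tissue. At 21 days 85 of the 227 passed in the same direction in double mutant against Largemyd (37.4% of them and 7.70% of the 1104 that passed, with 5.54% of all genes called). At 6 months 31 did (13.7% of the 227 and 11.6% of the 268 that passed, with 1.34% of all genes called). Without the 21 arrays the count at 21 days was 66 of the 902 genes that passed (4.52% of all genes), and at 6 months 6 of the 28 that passed (0.140% of all genes).

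Passed at all 3 ages were 19 of the 227 genes, 10 up and 9 down, and 13 of them passed in Dmdmdx against C57Bl/6 at 3 months too. Without the 21 arrays 5 of the 19 still passed at every age, namely Pttg1, Arl14ep, Lrmda, Mettl15 and Olfr1372-ps1. The 19 held Dmd, Ublcp1 and Parm1 as well as Prg4, which encodes the joint and tendon lubricant lubricin. It read 11.87, 12.20, 11.76, 12.04 and 11.85 in the double mutants and 9.97, 11.13, 10.37, 10.90 and 11.70 in Largemyd, with a difference of 1.13±0.24 (adjusted p = 0.0055). The Largemyd arrays ranged over more than 1 log2 unit, and replicate 5 came close to the double mutants. Ada, the adenosine deaminase that clears extracellular and cellular adenosine, rose by 0.88±0.10 (adjusted p = 8.9e-08), with 8.31 to 8.50 in the double mutants against 7.44 to 7.58 in Largemyd. Me1, the cytosolic malic enzyme that supplies NADPH for lipid synthesis, fell by 0.65±0.15 (adjusted p = 0.009), with 9.70 to 10.21 in the double mutants against 10.27 to 10.92 in Largemyd, with -0.81±0.15 at 21 days and -0.70±0.15 at 6 months. Without Largemyd replicate 5 its 3-month call was lost (adjusted p = 0.059). Olfr1372-ps1, an olfactory receptor pseudogene, rose by 1.15±0.14 (adjusted p = 8.2e-08), with 6.30 to 7.08 against 5.36 to 5.72. Its Largemyd values lie near those of Xist on the same male arrays, so the size of the rise is uncertain.

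**Figure D2:**
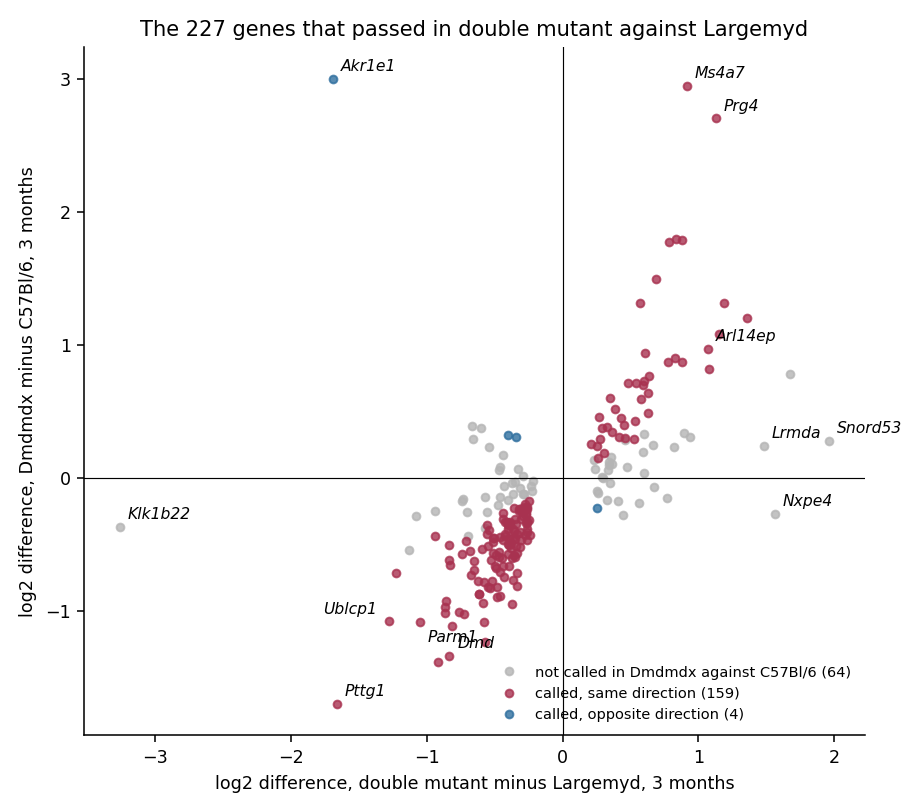
Log2 difference of double mutant minus Largemyd (horizontal) against that of Dmdmdx minus C57Bl/6 (vertical) at 3 months for the 227 genes that passed in the first comparison, which shares no array with the second. Of these, 159 passed in the same direction (red), 4 in the opposite one (blue, Akr1e1 among them) and 64 did not pass (grey, among them Klk1b22, Nxpe4, Lrmda and Snord53).

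In Largemyd against C57Bl/6 109 of the 227 genes passed (18.9% of all genes did), and in the double mutant against C57Bl/6 189 passed (30.1% of all genes). For 32 of the 227 the first held and the second did not. Both of those comparisons share their controls and the groups set side by side here, so the values are given as a description. The largest was Klk1b22, a glandular kallikrein, a family of secreted serine proteases. It read 5.20, 5.12, 5.56, 5.22 and 5.51 in the double mutants and 9.38, 8.75, 8.16, 8.27 and 8.35 in Largemyd. All 5 Largemyd arrays were far above the rest, since C57Bl/6 ranged over 4.97 to 5.85 and Dmdmdx over 4.93 to 5.45, and the log2 difference was -3.26±0.46 (adjusted p = 6.0e-06). The double mutant values are near those of Xist on the same male arrays (4.86 to 5.41), so they are not shown to be above background and no exact fold is given. The kallikrein genes are near copies of each other, so the probes may read other members. At 21 days the difference was -1.35±0.46 (adjusted p = 0.068) and at 6 months -1.77±0.46 (adjusted p = 0.035).

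Nxpe4, of the neurexophilin family, and Lrmda, a gene of melanocyte differentiation, showed the opposite pattern. Nxpe4 read 7.93, 8.0, 7.90, 7.82 and 7.47 in the double mutants and 5.91, 6.29, 6.41, 6.37 and 6.31 in Largemyd, a difference of 1.56±0.18 (adjusted p = 5.5e-08), and C57Bl/6 (7.88 to 8.05) and Dmdmdx (7.61 to 7.80) were near the double mutant. Lrmda read 8.13, 8.39, 8.14, 8.13 and 7.83 in the double mutants and 6.68, 6.51, 6.83, 6.53 and 6.64 in Largemyd, a difference of 1.49±0.14 (adjusted p = 1.9e-10), with C57Bl/6 at 7.65 to 8.01. Neither pair of groups overlapped, and Largemyd was the lineage that stood low. Fblim1, which encodes the filamin-binding protein migfilin, was -0.73±0.08 (adjusted p = 3.6e-08), with Largemyd at 8.25 to 8.45 and the other 3 lineages between 7.38 and 7.76. Lrrc3b, a leucine-rich repeat membrane protein, was -0.74±0.11 (adjusted p = 8.4e-06), with Largemyd at 7.01 to 7.70 and C57Bl/6 at 6.55 to 7.05. H2-K2, a gene of the class I family of antigen presentation with close copies, was 0.89±0.19 (adjusted p = 0.0056), and read 6.81 to 6.93 in the double mutants against 5.40 to 6.56 in Largemyd and 6.43 to 6.95 in C57Bl/6. The lowest Largemyd values of H2-K2 lie near those of Xist on male arrays, so the size of its difference is uncertain. Hdhd3, of the haloacid dehalogenase family, was -0.66±0.18 (adjusted p = 0.041), a call that was lost in 9 of the 10 fits with 1 array left out. Lrrc3b, Fblim1, H2-K2 and Hdhd3 were chosen after their values were seen.

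Akr1e1, an aldo-keto reductase that reduces anhydrofructose, had the second largest fall of the named genes and a wide spread within the double mutant. It read 4.88, 7.40, 7.34, 7.17 and 4.73 in the double mutants and 7.52, 8.11, 8.09, 8.12 and 8.14 in Largemyd. Replicates 1 and 5 of the double mutant lay near C57Bl/6 (4.79 to 5.25), while its replicates 2, 3 and 4 lay between these and Largemyd or Dmdmdx (7.53 to 8.34). The values of replicates 1 and 5 and of C57Bl/6 are near those of Xist on male arrays. They are not shown to be above background, so the sizes of the Akr1e1 differences, here and below, are uncertain. The difference of -1.69±0.43 (adjusted p = 0.028) was lost in 6 of the 10 fits with 1 array left out, as it was with the 10 arrays alone (adjusted p = 0.058) and the 20 of 3 months (adjusted p = 0.056). Aldo-keto reductases are close copies, so the probes may read more than 1 gene.

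Macrophages clear necrotic fibres and instruct their repair, and their markers stood higher in the double mutant. All 31 macrophage markers measured had a positive difference, with a median of 0.47 against -0.03 over all genes, of which 39.7% were positive. Of the 31, 3 passed and rose (Fcgr2b, Ms4a7 and Fcgr3), where 0.366% of all genes rose. Another count, of markers that did not overlap between groups and were higher, was 14 (3.57% of all genes), and 16 rose in the fit of the 10 arrays alone (3.18% of all genes). By array the list averaged 9.82, 10.16, 10.15, 10.14 and 9.88 in the double mutants and 9.40, 9.68, 9.73, 9.60 and 9.34 in Largemyd. Every double mutant lay above every Largemyd array, and within each group 2 arrays lay below the other 3.

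Fcgr2b and Fcgr3 encode the inhibitory and an activating low-affinity receptor for IgG on macrophages, and Ms4a7 a tetraspan membrane protein of tissue macrophages. Fcgr2b and Fcgr3 lie close together on chromosome 1. Their RefSeq promoter windows (build GRCm38.p6, from 250 bases before the start of transcription to 50 after it, minus strand) are shown because these 3 genes rose together. The windows are chr1:170976022-170976321 for Fcgr2b, chr1:171059354-171059653 for Fcgr3 and chr19:11336097-11336396 for Ms4a7. Capitals mark GAGGAA or its reverse complement TTCCTC, the core letters bound by the macrophage factor PU.1.
Fcgr2b promoter: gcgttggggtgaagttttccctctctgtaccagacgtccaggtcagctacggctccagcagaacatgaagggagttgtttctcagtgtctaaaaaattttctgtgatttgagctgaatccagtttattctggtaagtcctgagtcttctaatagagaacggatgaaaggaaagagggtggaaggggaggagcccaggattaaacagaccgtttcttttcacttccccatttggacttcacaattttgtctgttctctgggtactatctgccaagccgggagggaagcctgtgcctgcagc
Fcgr3 promoter: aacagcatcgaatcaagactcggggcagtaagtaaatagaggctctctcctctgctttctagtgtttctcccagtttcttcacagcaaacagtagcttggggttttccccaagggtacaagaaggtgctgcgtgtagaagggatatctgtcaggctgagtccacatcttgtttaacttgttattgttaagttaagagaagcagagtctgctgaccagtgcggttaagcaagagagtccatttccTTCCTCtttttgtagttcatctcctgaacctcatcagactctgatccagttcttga
Ms4a7 promoter: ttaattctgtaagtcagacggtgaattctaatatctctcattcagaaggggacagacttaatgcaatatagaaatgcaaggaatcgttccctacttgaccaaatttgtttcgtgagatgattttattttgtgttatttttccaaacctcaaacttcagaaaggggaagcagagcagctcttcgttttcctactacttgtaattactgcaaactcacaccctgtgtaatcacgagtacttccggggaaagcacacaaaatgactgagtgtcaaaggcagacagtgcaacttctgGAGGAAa
Fcgr3 and Ms4a7 have 2 windows each, of which only the first is shown. The letters stand once in the shown window of Fcgr3 and once in that of Ms4a7, and not in that of Fcgr2b. They occur in 28.3% of the 32851 promoter windows of the genome, where a gene may have several. By first window only, they occur in 10 of the 22 macrophage markers that have one. A match is a description of the letters and not of a bound site.

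Fcgr2b read 10.64, 10.79, 10.84, 10.81 and 10.52 in the double mutants and 9.75, 10.08, 9.81, 9.79 and 9.78 in Largemyd. The highest Largemyd array, replicate 2, was still below the lowest double mutant, and the difference was 0.88±0.16 (adjusted p = 8.7e-04). In Dmdmdx against C57Bl/6 the difference was 1.79±0.16 (adjusted p = 7.3e-12). Ms4a7 read 9.63, 9.98, 10.30, 10.15 and 9.64 in the double mutants and 8.65, 9.23, 9.08, 8.99 and 9.18 in Largemyd, a difference of 0.92±0.24 (adjusted p = 0.034), and Fcgr3 read 9.76, 10.03, 10.02, 9.98 and 9.59 in the double mutants and 8.73, 9.08, 9.29, 9.28 and 8.84 in Largemyd, a difference of 0.83±0.23 (adjusted p = 0.0493). Neither overlapped, but the call of Ms4a7 was lost in 7 and that of Fcgr3 in 10 of the 10 fits with 1 array left out. The Fc receptor genes resemble each other in sequence, so their probes may share signal. The chemokine receptor Ccr2, which brings monocytes into tissue, differed by 1.15±0.33 (adjusted p = 0.067), the growth factor receptor Csf1r by 0.50±0.15 (adjusted p = 0.085) and the mannose receptor Mrc1 by 0.51±0.16 (adjusted p = 0.11). None of these 3 passed, although their groups did not overlap.

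Other genes linked to immunity passed, among them Lyz1, a lysozyme. It has a near-identical macrophage copy, Lyz2, so its probes may read both. Lyz2 is in the macrophage list and did not pass. Lyz1 read 11.61, 11.41, 11.63, 11.42 and 11.17 in the double mutants and 10.33, 10.51, 10.14, 10.37 and 9.94 in Largemyd, without overlap, and rose by 1.19±0.24 (adjusted p = 0.0028). Sh2d1b1, an adaptor of SLAM receptors in natural killer cells, read 6.97, 7.49, 6.62, 7.07 and 6.10 in the double mutants and 5.64, 5.20, 5.27, 5.50 and 5.85 in Largemyd and rose by 1.36±0.25 (adjusted p = 6.9e-04). The 5 double mutants spread over 6.10 to 7.49, and the lowest, replicate 5, was close to the highest Largemyd array. The Largemyd values of Sh2d1b1 lie near those of Xist, so the size of its rise is uncertain. The lysosomal enzymes Fuca1 (0.83±0.12, adjusted p = 8.4e-06) and Ctsh (0.78±0.19, adjusted p = 0.017) rose as well, and the call of Ctsh was lost in 4 of the 10 fits with 1 array left out. The list of 17 autophagy and lysosome genes, which holds neither, had a median of 0.01. Of its genes 11 were higher and 6 lower, and none passed. Cd59a, which protects cells from the complement attack complex, fell by 0.83±0.18 (adjusted p = 0.0087), with 9.44 to 10.03 in the double mutants against 10.34 to 10.78 in Largemyd, and without double mutant replicate 4 it did not pass (adjusted p = 0.053). Fuca1, Ctsh and Cd59a were chosen after their values were seen.

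The Nlrp1 genes, sensors that form inflammasomes, lie next to each other in the genome and rose together. The pseudogene Nlrp1c-ps read 7.00, 7.15, 7.08, 7.12 and 6.89 in the double mutants and 5.99, 6.36, 6.22, 5.72 and 5.57 in Largemyd and rose by 1.08±0.15 (adjusted p = 8.4e-06), Nlrp1a rose by 0.52±0.11 (adjusted p = 0.0044) and Nlrp1b by 0.36±0.09 (adjusted p = 0.019). None of the 3 overlapped between groups. They are near copies, so the probes may not tell them apart, and the call of Nlrp1b was lost in 5 of the 10 fits with 1 array left out. The lowest Largemyd values of Nlrp1c-ps lie near those of Xist, so the size of its rise is uncertain.

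Of 7 class II antigen presentation genes, none passed and 6 were higher, with a median of 0.53 (6 rose in the fit of the 10 arrays alone, as did 3.18% of all genes). H2-Eb1 read 11.30, 11.34, 11.86, 11.68 and 11.28 in the double mutants and 10.50, 10.46, 10.79, 10.47 and 10.79 in Largemyd, a difference of 0.89±0.28 (adjusted p = 0.11) with no overlap, and H2-Ab1 differed by 0.95±0.34 (adjusted p = 0.20). The list averaged 10.03 to 10.44 in the double mutants and 9.58 to 9.88 in Largemyd. Of 16 complement genes 15 were higher (median 0.26, none passed, 5 in the 10 arrays alone), and of 27 chemokines and cytokines 22 were higher (median 0.16, none passed, 6 in the 10 arrays alone). The share of all genes that rose in the 10 arrays alone was 3.18% for these counts too. Markers of T and NK cells had a median of 0.01 over 17 genes, those of B and plasma cells -0.03 over 11 and those of neutrophils -0.02 over 14, and none of these passed. Their part in the higher macrophage values was not tested.

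Most collagen and matrix genes had higher values by small steps. Of 39 collagens and matrix genes 35 were higher, with a median of 0.24, but only Lox passed (0.366% of all genes rose). Of the 39, 12 did not overlap and were higher (3.57% of all genes), and 14 rose in the 10 arrays alone (3.18% of all genes). Lox, the enzyme that crosslinks collagen and elastin, read 10.37, 10.60, 10.53, 10.58 and 10.48 in the double mutants and 9.44, 9.95, 9.81, 9.77 and 10.13 in Largemyd. The 2 groups did not overlap, the difference was 0.69±0.15 (adjusted p = 0.0079), and the call was lost without Largemyd replicate 1 (adjusted p = 0.0501). Periostin (Postn), a matrix protein of healing tissue, differed by 0.75±0.22 (adjusted p = 0.088) and Tnc by 0.79±0.34 (adjusted p = 0.34). Tgfbi, a matrix protein induced by TGF beta, rose by 0.61±0.11 (adjusted p = 3.8e-04) and read 11.33, 11.44, 11.42, 11.60 and 11.32 in the double mutants and 10.81, 10.75, 10.98, 10.85 and 10.70 in Largemyd. Among the 21 genes of the TGF beta family and its targets Bmp6, a ligand of the family, fell by 0.34±0.09 (adjusted p = 0.046), with overlap, and the call was lost in 8 of the 10 fits with 1 array left out. The median of that list was -0.04, and 0.04 without Largemyd replicate 1. Of the 18 markers of fibro-adipogenic progenitors, the main source of muscle fibroblasts, 9 were higher and 9 lower, with a median of 0.00, and of the 10 tendon markers 6 were higher, with a median of 0.05.

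Genes of fibre metabolism had lower values, where 12021 of all 19938 genes were lower. None of the 29 genes of fatty acid oxidation passed, but 26 were lower, with a median of -0.26, 14 did not overlap and were lower (4.67% of all genes), and 14 fell in the 10 arrays alone (3.48% of all genes). The list averaged 10.26, 10.21, 10.18, 10.16 and 10.16 in the double mutants and 10.40, 10.42, 10.48, 10.37 and 10.55 in Largemyd, without overlap. Hadha, of the mitochondrial trifunctional protein, read 11.34, 11.23, 11.17, 11.14 and 11.16 in the double mutants and 11.45, 11.57, 11.55, 11.49 and 11.46 in Largemyd, a difference of -0.29±0.08 (adjusted p = 0.071), and Acadvl, the very long chain acyl-CoA dehydrogenase, differed by -0.36±0.11 (adjusted p = 0.088). Of 64 oxidative phosphorylation genes 62 were lower (median -0.16, none passed, 9 in the 10 arrays alone), and of 22 genes of the tricarboxylic acid cycle 21 were lower (median -0.21, none passed, 7 in the 10 arrays alone). All 21 genes of glycolysis and glycogen were lower (median -0.17, none passed, 4 in the 10 arrays alone).

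**Figure D3:**
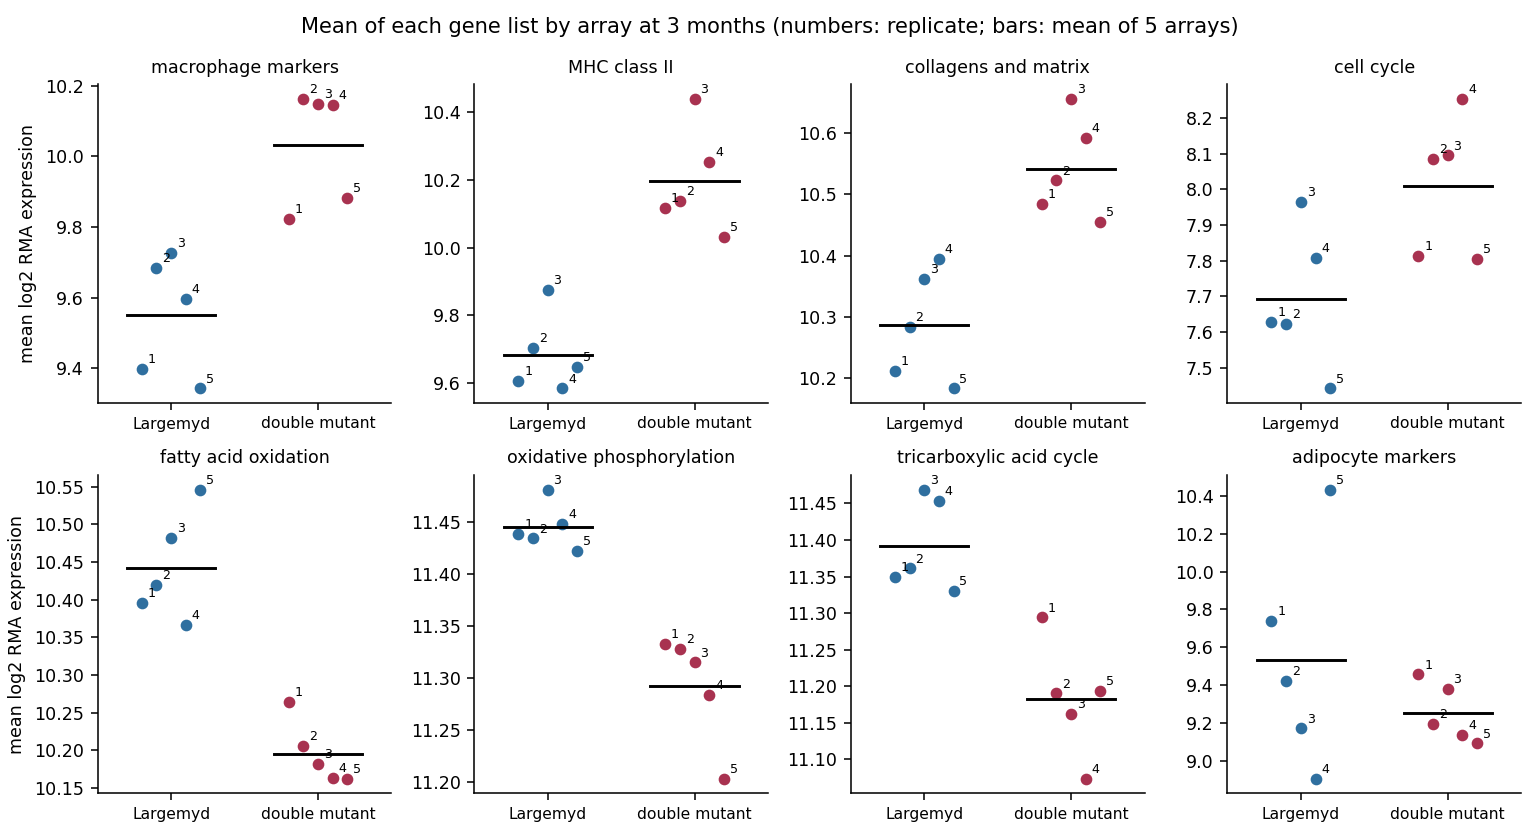
Mean log2 RMA expression of the genes of 8 lists in each of the 10 arrays, numbered by replicate, with the mean of the 5 arrays as a bar and a separate vertical scale for each list. Macrophage, class II and matrix means are higher and fatty acid oxidation, oxidative phosphorylation and tricarboxylic acid cycle means lower in every double mutant array, while cell cycle and adipocyte means overlap and Largemyd replicate 5 has the highest adipocyte mean.

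Single genes of lipid handling and mitochondria outside these lists passed in both directions. They were picked after their values were seen, with no list or test behind them. Of those that rose, Mettl15, a methyltransferase of mitochondrial ribosomal RNA, differed by 0.63±0.11 (adjusted p = 6.5e-04), Lyrm7, an assembly factor of respiratory complex III, by 0.41±0.10 (adjusted p = 0.029), Sfxn2, a sideroflexin of mitochondria, by 0.30±0.08 (adjusted p = 0.042) and Cpt1c, a carnitine palmitoyltransferase known from neurons, by 0.23±0.06 (adjusted p = 0.0468). The calls of Lyrm7, Sfxn2 and Cpt1c were lost in 6, 8 and 8 of the 10 fits with 1 array left out. Dgat2, which makes triglyceride, fell by 0.87±0.19 (adjusted p = 0.007), and read 9.76, 9.35, 9.64, 9.46 and 9.19 in the double mutants and 10.40, 9.86, 10.36, 10.17 and 10.96 in Largemyd. Largemyd replicate 5, the array with the high adipocyte markers, was also highest here, and without it the call was lost (adjusted p = 0.057). Plin5, a coat protein of lipid droplets next to mitochondria, fell by 0.43±0.11 (adjusted p = 0.042) and Acacb, which makes the malonyl-CoA that restrains fatty acid import, fell by 0.57±0.15 (adjusted p = 0.038). Each call was lost in 9 of the 10 fits with 1 array left out. Ech1, an isomerase needed to oxidise unsaturated fatty acids, fell by 0.55±0.10 (adjusted p = 0.0013), with 10.40 to 10.57 in the double mutants against 11.01 to 11.10 in Largemyd. Slc16a1, the lactate and pyruvate carrier MCT1, fell by 0.59±0.10 (adjusted p = 3.2e-04), with 8.88 to 9.14 in the double mutants against 9.45 to 9.69 in Largemyd. Gadd45gip1, a protein of the mitochondrial ribosome, fell by 0.71±0.12 (adjusted p = 1.9e-04), Mrpl14, of the same ribosome, fell by 0.51±0.13 (adjusted p = 0.034), Twnk, the mitochondrial DNA helicase, fell by 0.36±0.09 (adjusted p = 0.025), and Cyb5b, the cytochrome b5 of the outer membrane, fell by 0.40±0.08 (adjusted p = 0.0049). The calls of Mrpl14 and Twnk were lost in 9 and 6 of the 10 fits with 1 array left out. The adipocyte markers, which could carry lipid genes, had a median of -0.28 over 15 genes with 12 lower (12021 of all 19938 genes were lower). The median was -0.03 without Largemyd replicate 5, and the part of these markers in the lipid gene falls was not tested.

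Glycogen control was represented by Ppp1r3c, which brings protein phosphatase 1 to glycogen. It read 9.55, 9.03, 9.04, 8.95 and 9.10 in the double mutants and 10.39, 10.67, 9.88, 10.18 and 10.68 in Largemyd. The 5 double mutants were all below Largemyd, with replicate 1 nearest to it, and the difference was -1.23±0.28 (adjusted p = 0.011). With the 20 arrays of 3 months alone it did not pass (adjusted p = 0.058). Gys2, the liver form of glycogen synthase, fell by 0.94±0.20 (adjusted p = 0.0056) and read 5.23, 5.12, 5.13, 5.02 and 5.22 in the double mutants and 6.21, 5.52, 5.77, 5.53 and 7.39 in Largemyd. Its double mutant values too lie near those of Xist, so the size of the fall is uncertain. Largemyd replicate 5 was by far the highest, without it the call was lost (adjusted p = 0.056), and it also did not pass with the 10 arrays alone (adjusted p = 0.064).

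Among genes of the fibre and its nerve supply, named after their values were seen, Homer1, a scaffold of calcium signalling at the triad and the synapse, read 8.40, 8.45, 8.20, 8.13 and 8.45 in the double mutants and 9.23, 9.24, 9.21, 9.30 and 8.92 in Largemyd and fell by 0.86±0.13 (adjusted p = 4.6e-05). Cntfr, the receptor of ciliary neurotrophic factor, fell by 0.87±0.16 (adjusted p = 8.7e-04), with 8.17 to 8.55 in the double mutants against 8.93 to 9.60 in Largemyd. Tuba8, an alpha-tubulin of muscle, fell by 0.76±0.18 (adjusted p = 0.015), with double mutant arrays at 10.29 to 10.41, and the call was lost in 3 of the 10 fits with 1 array left out. Dusp1, a phosphatase that switches off MAP kinases, fell by 0.67±0.17 (adjusted p = 0.027), with the call lost in 8 of the 10 fits with 1 array left out. Kcnma1, the large-conductance calcium-activated potassium channel, fell by 0.58±0.13 (adjusted p = 0.013) by its brightest probe set, and the call was lost in 3 of the 10 fits with 1 array left out. The mean of its probe sets gave -0.75 and did not pass (adjusted p = 0.42).

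The lists of muscle identity held no gene that passed. The 22 satellite cell and myogenic genes had a median of -0.00, the 23 genes of the developing and regenerating sarcomere 0.10, the 18 fast fibre genes -0.03 and the 12 slow fibre genes 0.23. The slow fibre median turned to -0.14 without Largemyd replicate 5, and the slow fibre means of the Largemyd arrays ranged from 9.13 to 10.98. Calcium handling and excitation genes were lower in 17 of 18 (12021 of all 19938 genes were lower), with a median of -0.21. Stim1, the calcium sensor of the sarcoplasmic reticulum, differed by -0.30±0.09 (adjusted p = 0.11). Of 30 cell cycle genes 29 were higher, with a median of 0.32 and wide overlap between arrays, and none passed. In the list of heat shock and oxidative stress 2 of 20 fell (0.772% of all genes did). Hsph1, a chaperone, fell by 0.57±0.15 (adjusted p = 0.039), where Largemyd replicate 5 read 10.14 and the others 8.85 to 9.22, and without that array it did not pass (adjusted p = 0.29). Sod2, the mitochondrial superoxide dismutase, fell by 0.38±0.10 (adjusted p = 0.043) without overlap, a call lost in 9 of the 10 fits with 1 array left out. The imprinted long noncoding RNA Meg3 rose by 0.77±0.20 (adjusted p = 0.034), with 9.68 to 10.17 in the double mutants against 9.03 to 9.37 in Largemyd, and 14 of the 15 imprinted growth genes were higher. Hgf, the growth factor that wakes satellite cells, rose by 0.57±0.15 (adjusted p = 0.032), with 7.83 to 8.16 in the double mutants against 7.23 to 7.67 in Largemyd. Meg3 and Hgf were lost as calls in 8 and 6 of the 10 fits with 1 array left out.

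Small nucleolar RNAs guide the methylation and pseudouridylation of ribosomal RNA and lie in introns of host genes. Of 51 tested, 50 had a positive difference, with a median of 0.29, and 5 rose. Over all genes 39.7% had a positive difference, the median was -0.03 and 0.366% rose. MicroRNA genes on the same arrays had a median of -0.00 over 300, and none passed (14 at an unadjusted p under 0.05). The 51 averaged 7.90, 7.98, 7.86, 8.15 and 7.78 in the double mutants and 7.27, 7.63, 7.52, 7.59 and 7.83 in Largemyd. Largemyd replicate 5 overlapped the double mutants, and the other 4 lay below them.

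Snord53 read 10.97, 11.29, 11.10, 11.44 and 11.04 in the double mutants and 8.61, 8.77, 8.82, 9.20 and 10.62 in Largemyd and rose by 1.96±0.28 (adjusted p = 7.8e-06). Largemyd replicate 5 lay close below the double mutants and the other 4 lay far below. Snord73b read 8.94, 9.02, 8.35, 9.24 and 8.34 in the double mutants and 5.65, 7.34, 7.24, 7.67 and 7.62 in Largemyd and rose by 1.67±0.34 (adjusted p = 0.0041), with Largemyd replicate 1 lowest by far. Snord47 rose by 0.94±0.22 (adjusted p = 0.017), Snord82 by 0.67±0.16 (adjusted p = 0.023) and Snord35a by 0.77±0.20 (adjusted p = 0.034), all with overlap, and these calls were lost in 3, 6 and 6 of the 10 fits with 1 array left out.

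Of 4 host genes tested, 1 passed, in the opposite direction to its small RNA. Wdr43, which holds Snord53, differed by 0.06±0.10 (adjusted p = 0.90), and Ncl, which holds Snord82, by 0.17±0.14 (adjusted p = 0.72). Gas5, a noncoding host of several small RNAs, differed by 0.53±0.16 (adjusted p = 0.087) and holds Snord47. Rps3a1, the ribosomal protein gene that holds Snord73b, fell by 0.66±0.16 (adjusted p = 0.025), with overlap because Largemyd replicate 1 read 8.41 and the others 8.89 to 9.60. Ribosomal protein genes have many processed copies, so this value is uncertain, and the call was lost in 7 of the 10 fits with 1 array left out.

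**Figure D4:**
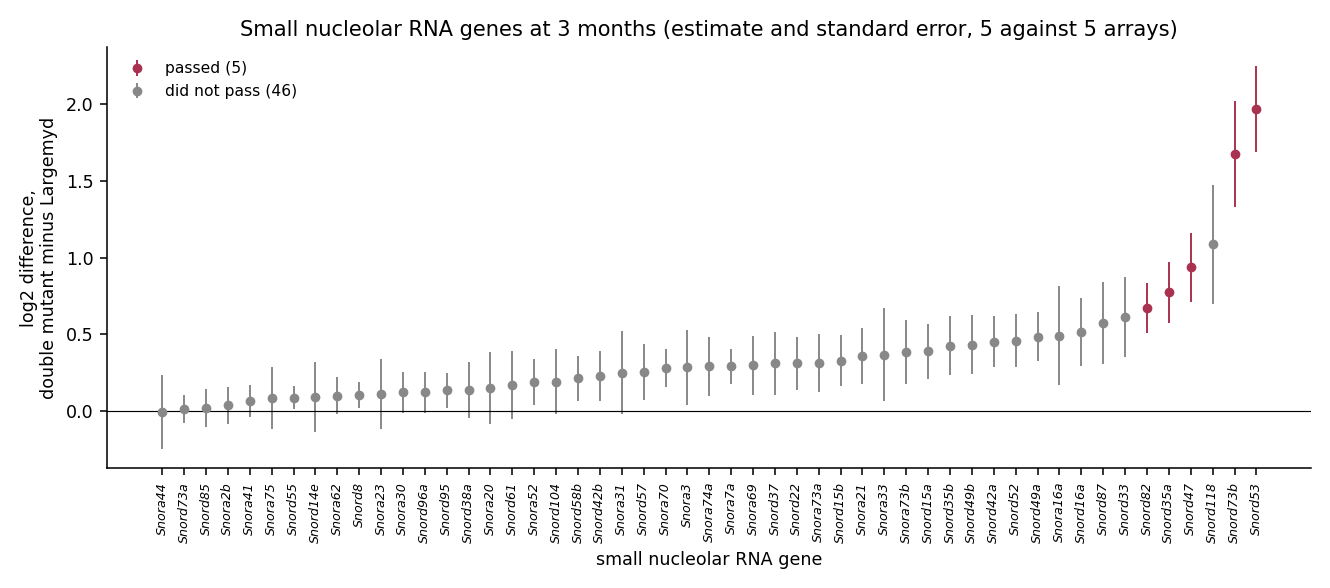
Log2 difference of double mutant minus Largemyd at 3 months with its standard error for each of 51 small nucleolar RNA genes, in order of size, from 5 against 5 arrays. The 5 that passed are red, and 50 of the 51 differences are above 0.

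Some genes that passed lay side by side in the genome. Of the 227, 46 (20.3%) had another called gene among the 5 tested genes on either side, as did 10.2% of all 19919 genes with a position. Besides the Fc receptor and Nlrp1 genes, Arl14ep stood near Mettl15. Mettl15 rose by 0.63±0.11, and by 0.50±0.11 at 21 days and 0.87±0.11 at 6 months. Lrmda and Kcnma1 were separated by 1 tested gene and moved in opposite directions, and so did Me1 and Cyb5r4, with 4 between them. Cyb5r4, a cytochrome b5 reductase, rose by 0.60±0.13 (adjusted p = 0.007), and also at 21 days (0.76±0.13) and 6 months (0.68±0.13).

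A direct test asked whether the difference that goes with Dmdmdx was unlike with Largemyd present and without it. It took the double mutant minus Largemyd less Dmdmdx minus C57Bl/6. The breeding of the lines is not given, so other differences between lines cannot be told apart from the mutation here. Of 19938 genes 635 passed (3.18%), 263 with a higher and 372 with a lower difference in the presence of Largemyd. The count was 239 without the 5 arrays of 3 months with high Xist or other tissue, and 422 without C57Bl/6 replicate 2. Of the 227 genes 33 were among the 635. This test holds the comparison that chose the 227, with the same arrays, so some overlap is built in and the count is a description. The largest negative values apart from Akr1e1 (-4.69±0.60, adjusted p = 2.9e-06) and Klk1b22 (-2.89±0.65, adjusted p = 0.0057) were in Gpnmb, Mmp12 and C3ar1, all of macrophages. Gpnmb, a glycoprotein of lipid-laden macrophages, differed by 0.12±0.28 between double mutant and Largemyd and by 3.10±0.28 between Dmdmdx and C57Bl/6, a difference of differences of -2.98±0.40 (adjusted p = 5.0e-06). The values for the elastase Mmp12 were 0.41±0.35 and 3.04±0.35, a difference of -2.62±0.50 (adjusted p = 0.0011), and for the complement receptor C3ar1 0.51±0.26 and 3.08±0.26, a difference of -2.57±0.37 (adjusted p = 2.1e-05). Their mean levels in Largemyd alone were 11.42, 10.50 and 11.20, against 8.01, 6.42 and 8.34 in C57Bl/6. In the macrophage list 20 of the 31 had a lower difference and passed in this test (1.87% of all genes did), and the median was 0.47 with Largemyd present and 1.79 without it. For fatty acid oxidation these medians were -0.26 and -0.60, with 3 of 29 passing as higher (1.32% of all genes), and for matrix genes 0.24 and 0.56, with 4 of 39 passing as lower.

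The largest positive values were in Rny1 (1.87±0.52, adjusted p = 0.03), a small RNA bound by the Ro protein, Nxpe4 (1.84±0.26, adjusted p = 1.4e-05), the clock repressor Ciart (1.81±0.46, adjusted p = 0.016), Snord53 (1.69±0.39, adjusted p = 0.0079) and the clock-controlled factor Hlf (1.45±0.25, adjusted p = 2.9e-04). Between double mutant and Largemyd, Rny1 (1.33±0.37), Ciart (0.63±0.32) and Hlf (0.29±0.17) did not pass (adjusted p = 0.055, 0.49 and 0.59). Between Dmdmdx and C57Bl/6 they differed by -0.54±0.37, -1.18±0.32 and -1.16±0.17. The Largemyd arrays spread over 6.09 to 7.89 for Ciart and 7.09 to 8.33 for Hlf, and both genes overlapped between double mutant and Largemyd. Without all 21 arrays with high Xist or other tissue 382 genes passed, and of these 10 genes Ciart (adjusted p = 0.23) and Snord53 (adjusted p = 0.16) did not. For Dmd the 2 differences were -0.83±0.18 and -1.34±0.18, and they were not separated by the test (difference 0.51±0.25, adjusted p = 0.33).

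Age was tested the same way, as the difference at 3 months less that at 21 days or at 6 months, because the arrays of each age have their own mean level. Against 21 days 95 genes passed (0.476%), 72 with a higher and 23 with a lower difference at 3 months. Leaving out 1 array gave 21 (without double mutant replicate 1 of 21 days) to 453 genes (without Largemyd replicate 2 of 21 days), and 15 of the 20 left-out arrays moved the count by more than 1.5 times. Leaving out the arrays of these 4 groups with high Xist or other tissue left 45, and leaving out all 21 gave 192, with the 10 genes named here among them. The Fc receptor-like gene Fcrls, found in macrophages, differed by -1.45±0.28 at 21 days and 0.77±0.28 at 3 months, a change of 2.22±0.40 (adjusted p = 0.0033). The class II genes H2-Aa (-1.11±0.29 and 0.53±0.29, a change of 1.64±0.41, adjusted p = 0.0496) and H2-Eb1 (-0.72±0.28 and 0.89±0.28, a change of 1.61±0.39, adjusted p = 0.038) had negative differences at 21 days and positive ones at 3 months. The 3-month differences of Fcrls, H2-Aa and H2-Eb1 did not pass by themselves (limma adjusted p = 0.21, 0.54 and 0.11). Over the 7 class II genes the median was -0.72 at 21 days, 0.53 at 3 months and 0.08 at 6 months. Over the 39 matrix genes it was -0.31, 0.24 and 0.08, with 11 that fell at 21 days (3.80% of all genes), and over the macrophage markers 0.08, 0.47 and 0.52. Pmp2, a lipid-binding protein of myelin, changed by 1.57±0.31 (adjusted p = 0.0094) and the predicted gene 9030619P08Rik by 1.40±0.22 (adjusted p = 0.0014). Pmp2 differed by -1.66±0.22 at 21 days and by -0.09±0.22 at 3 months, where it did not pass (adjusted p = 0.92).

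The differences that were lower at 3 months than at 21 days were led by Ppp1r3c (0.57±0.28 and -1.23±0.28, a change of -1.80±0.39, adjusted p = 0.019). It was followed by Lrrc30 (-1.30±0.32, adjusted p = 0.041), the potassium channel Kcnc4 (-1.17±0.20, adjusted p = 0.0026) and the phosphatases Dusp26 (-1.15±0.26, adjusted p = 0.023) and Dusp1 (-1.15±0.24, adjusted p = 0.015). At 3 months alone Lrrc30 (-0.69±0.23), Kcnc4 (-0.47±0.14) and Dusp26 (-0.18±0.18) did not pass (adjusted p = 0.15, 0.087 and 0.80). At 21 days these genes differed by 0.61±0.23, 0.69±0.14 and 0.97±0.18. Fatty acid oxidation genes had medians of -0.15 at 21 days, -0.26 at 3 months and 0.03 at 6 months, and oxidative phosphorylation genes of -0.26, -0.16 and 0.11.

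Against 6 months 15 genes passed (0.0752%), 3 with a higher and 12 with a lower difference at 3 months. Leaving out 1 array gave 2 (without Largemyd replicate 2 of 6 months) to 139 (without Largemyd replicate 5 of 6 months), 12 of the 20 left-out arrays moved the count by more than 1.5 times, and 3 genes passed without the arrays of these groups with high Xist or other tissue (5 without all 21). Snord53 differed by 1.96±0.28 at 3 months, 1.36±0.28 (adjusted p = 0.0014) at 21 days and -1.57±0.28 (adjusted p = 0.001) at 6 months, so that its direction turned, a change of 3.54±0.39 (adjusted p = 7.8e-08). Ppp1r3c changed by -2.03±0.39 (adjusted p = 0.014), Homer1 by -1.04±0.19 (adjusted p = 0.012), Akr1e1 by -3.14±0.60 (adjusted p = 0.014), Ankrd9 by -0.98±0.21 (adjusted p = 0.029) and 6430548M08Rik by -0.85±0.17 (adjusted p = 0.022). Ldb2 (0.68±0.14, adjusted p = 0.022) and Pcgf2 (0.42±0.09, adjusted p = 0.033) were the others with a higher difference at 3 months. Without the 21 arrays Snord53 (adjusted p = 0.0027) and Homer1 (adjusted p = 0.036) still passed, and the other 6 named here had adjusted p between 0.097 and 0.49.

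**Figure D5:**
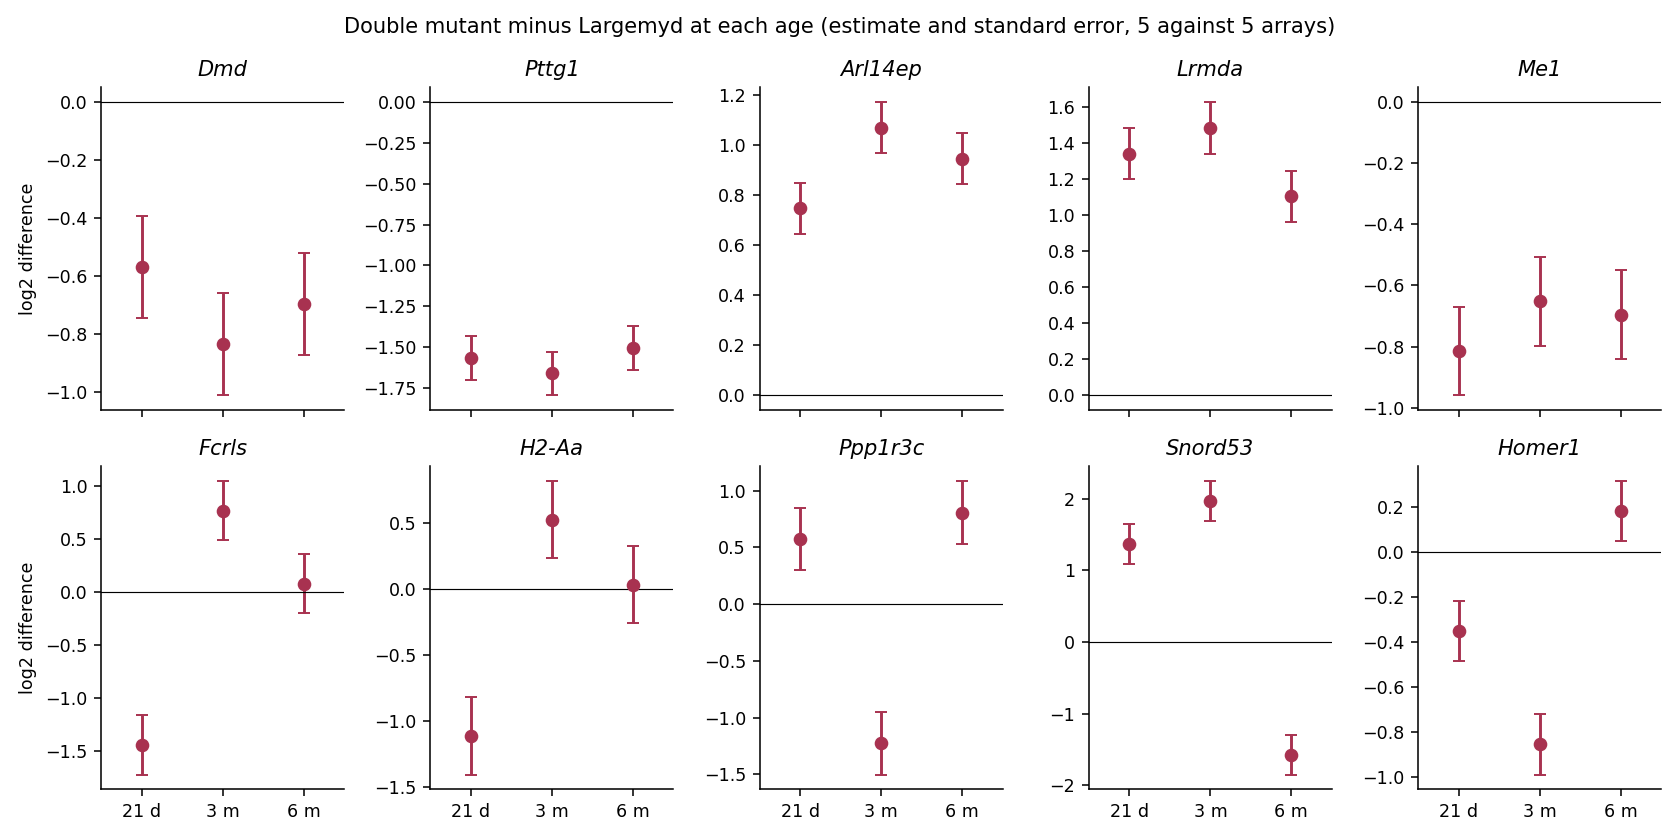
Log2 difference of double mutant minus Largemyd with its standard error at 21 days, 3 months and 6 months for 10 genes, each from 5 against 5 arrays and on its own vertical scale. Dmd, Pttg1, Arl14ep, Lrmda and Me1 keep their direction at all 3 ages. The estimates of Fcrls and H2-Aa are negative at 21 days and positive, but not passing, at 3 months. Those of Ppp1r3c and Homer1 are negative at 3 months and positive, but not passing, at 6 months. Snord53 alone of these passed in both directions, positive at 21 days and 3 months and negative at 6 months.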

How the data were processed

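The deposited values are log2 expression that the authors made with RMA in Affymetrix Expression Console, as the submitters' processing notes record without a version number, and they were used unchanged. Of 35556 probe sets 21789 carried 1 gene symbol, and for genes with several the one with the highest mean over the 60 arrays was kept, which left 19938 genes. Gene names come from the platform annotation and RefSeq. Depth does not apply to arrays, whose number limits the precision. The test was limma (lmFit on 12 group means, 48 residual degrees of freedom, eBayes), with p-values adjusted by Benjamini and Hochberg over all genes and 0.05 as the threshold. Replicates are separate animals.

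The members and the 46 gene lists were chosen with earlier results of these data known. Named were Dmd, Utrn and Dag1, the 10 genes with the largest rise and the 10 with the largest fall, taken from those that passed and did not overlap between groups (predicted genes left out), up to 4 genes that passed per list, the 5 largest in each direction of each difference of differences, and, in lists without a call, members with the smallest p-values. Genes named beyond this rule (lipid, immune, fibre, mitochondrial, matrix, neighbouring and host genes, and uncalled members of lists that hold a call) were chosen after their values were seen. The fit was checked on simulated data. Alternatives were other arrays in the fit, other scaling, a filter on dim genes, the mean of probe sets, array weights, trend and robust eBayes, and each array left out. Tests used limma 3.58.1 under R 4.3.3, tables were handled with pandas 2.3.3 (Python 3.11.15), and plots were drawn by matplotlib 3.10.9. One gene of this axis is not reported here.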

Additional observations from a re-analysis of the deposited data

Results flagged for a closer look

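Dixon's test set the highest or lowest array of a group against the other 4 in 230 groups of values, over the genes named and the list means, and 20 passed its 95% limit, where chance gives about 1 in 20. Among single genes these were Snord73b in Largemyd replicate 1 (5.65), Nxpe4 in Largemyd replicate 1 (5.91), Akr1e1 in Largemyd replicate 1 (7.52), Ppp1r3c in double mutant replicate 1 (9.55), Glo1 in Largemyd replicate 5 (10.58), Sntb2 in double mutant replicate 5 (9.06), Fcgr2b in Largemyd replicate 2 (10.08), Hsph1 in Largemyd replicate 5 (10.14), Homer1 in Largemyd replicate 5 (8.92), Snord82 in double mutant replicate 5 (10.20) and Rps3a1 in double mutant replicate 4 (8.70). Among list means they were laminins and integrins in double mutant replicate 5 (9.75), fibro-adipogenic progenitor markers in double mutant replicate 5 (9.85), T and NK cell markers in double mutant replicate 5 (6.95), neutrophil markers in Largemyd replicate 5 (7.30), skin markers in Largemyd replicate 2 (7.15), satellite cells and myogenic factors in double mutant replicate 4 (8.84), calcium handling and excitation in Largemyd replicate 5 (10.36), neuromuscular junction in double mutant replicate 4 (8.90) and clock genes in double mutant replicate 2 (9.11). Values are log2 RMA expression. Largemyd replicate 5 and double mutant replicate 5 were named most often.

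Differences between groups that passed the limma test of the difference itself are given on the log2 scale. For the double mutant minus Largemyd less Dmdmdx minus C57Bl/6, the largest positive values were Rny1 (1.87), Nxpe4 (1.84), Ciart (1.81), Snord53 (1.69) and Hlf (1.45). The largest negative values were Akr1e1 (-4.69), Gpnmb (-2.98), Klk1b22 (-2.89), Mmp12 (-2.62) and C3ar1 (-2.57). Other differences between the lines cannot be told apart from the mutation in these. The double mutant minus Largemyd at 3 months less the same at 21 days was Fcrls (2.22), H2-Aa (1.64), H2-Eb1 (1.61), Pmp2 (1.57), 9030619P08Rik (1.40), Ppp1r3c (-1.80), Lrrc30 (-1.30), Kcnc4 (-1.17), Dusp26 (-1.15) and Dusp1 (-1.15). Less the same at 6 months it was Snord53 (3.54), Ldb2 (0.68), Pcgf2 (0.42), Akr1e1 (-3.14), Ppp1r3c (-2.03), Homer1 (-1.04), Ankrd9 (-0.98) and 6430548M08Rik (-0.85).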

How the results depend on the processing

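Over 68 named genes no direction was reversed in any setting, and 35 kept their call in all. Most of these genes were chosen among those that passed, so a reversed direction was unlikely from the start. Of 604 values of these genes under settings other than leaving out an array 559 stayed on the same side of the threshold, and of 680 with 1 array left out 494 did. Array weights raised the count of genes from 227 to 2700 (965 higher and 1735 lower). They raised that of the difference with Largemyd less that without it from 635 to 2495. The count of 3 months against 21 days went from 95 to 1404 and that against 6 months from 15 to 1811. The 10 arrays alone gave 1327, and the fit without the arrays of other groups with high Xist or other tissue, added after seeing the data, 515. Without such arrays the differences of differences gave 239, 45 and 3. A filter on genes under the 30th percentile gave 146 against 21 days and 62 against 6 months, and 266 for the direct comparison. Subtracting array medians gave 180 (67 higher and 113 lower) and quantile normalisation 224 (93 higher and 131 lower), against 73 and 154, the 20 arrays of 3 months 179 (79 and 100), and the mean of probe sets 227. Medians subtracted turned the difference with Largemyd less that without it from 263 higher and 372 lower to 352 and 332. With 1 array left out the 4 counts ranged from 103 to 176, 422 to 929, 21 to 453 and 2 to 139, and the Dmd difference from -0.89 to -0.76. The cause was not tested. The median of the dystroglycan glycosylation list ranged from -0.15 to -0.03 and that of the TGF beta list from -0.07 to 0.04. The medians of B and plasma cell, neutrophil and satellite cell markers, all within 0.03 of 0, turned to positive under quantile normalisation. No paired analysis was possible because the labels give animal codes that tie no double mutant to a Largemyd animal.

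The precision is set by 5 animals a group. Levels were not compared between ages.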
